A study of Arabidopsis thaliana with 24 samples.

Results

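ADC2 and the genes that make polyamines were followed in Arabidopsis thaliana roots over the first day after phosphate (Pi) was withdrawn. The gene set held 6 genes, namely the arginine decarboxylases ADC1 and ADC2, the spermidine synthases SPDS1 and SPDS2, the spermine synthase SPMS and the acetyltransferase NATA1. A gene was counted as measured where a probe set (a group of short probes for 1 transcript) named its locus alone. That held for 2 of the 6, of 16841 genes named by such probe sets in all: ADC2 (locus AT4G34710, probe set 253203_at) and SPMS (AT5G53120, probe set 248248_at). ADC1 (AT2G16500), SPDS1 (AT1G23820), SPDS2 (AT1G70310) and NATA1 (AT2G39030) had no such probe set and were not analysed here. ADC2 had been chosen from its measured difference between Pi supplies, which was largest at 6 h and smaller before and after, so its values are given as a description with no test. SPMS was in the set for its role in the pathway.

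The study set out to group genes of Pi deficiency by coexpression and measured root RNA on 24 one-colour Affymetrix arrays. Minus Pi roots came from plants moved to medium with 0 mM Pi, and plus Pi roots from control plants moved to medium with 1.5 mM Pi, with harvests at 0, 1, 6 and 24 h. Each of the 8 groups had 3 arrays, from an experiment done 3 times, and about 20 plants were harvested per time. The plants of all groups were 30 days old and grown in water culture with full nutrients under 10 h of light and 14 h of dark. All were rinsed in dilute EDTA at transfer, which took place 1 h into the light period. The labels name no ecotype, mutant or transgene. All arrays had medians between 6.345 and 6.454 on the log2 scale, and no array was an identical copy of another.

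Polyamines are small, positively charged metabolites that bind nucleic acids, membranes and cell walls. In Arabidopsis, which lacks an ornithine decarboxylase gene, putrescine is made from arginine: arginine decarboxylase forms agmatine, which is then converted to putrescine. Spermidine synthase and spermine synthase add aminopropyl groups supplied by decarboxylated S-adenosylmethionine. Of the arginine decarboxylase genes, ADC2 is the one known for induction by drought, salt, wounding and jasmonate. NATA1 acetylates ornithine and putrescine and is also known as a jasmonate-inducible gene.

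ADC2 was higher in minus Pi roots than in plus Pi roots at 1, 6 and 24 h, with the largest difference at 6 h. At 0 h its log2 values in experiments 1, 2 and 3 were 9.64, 9.33 and 9.54 in minus Pi roots, against 9.56, 9.40 and 9.37 in plus Pi roots. At 1 h they were 10.40, 10.65 and 10.69 in minus Pi roots, against 9.73, 9.66 and 9.93 in plus Pi roots. The arms overlapped at 0 h, and at 1 h the lowest minus Pi array stood above the highest plus Pi array. At 6 h the values were 11.63, 11.55 and 11.74 in minus Pi roots, against 9.64, 9.25 and 9.16 in plus Pi roots. At 24 h they were 9.42, 10.04 and 9.72 in minus Pi roots, against 9.15, 8.82 and 9.34 in plus Pi roots. The arms did not overlap at 6 h or at 24 h, but at 24 h the gap between the lowest minus Pi and the highest plus Pi array was narrow.

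Averaged over 3 arrays, ADC2 stood at 9.50 ± 0.157, 10.58 ± 0.153, 11.64 ± 0.0972 and 9.73 ± 0.314 (log2, SD) in minus Pi roots at 0, 1, 6 and 24 h. In plus Pi roots the means were 9.44 ± 0.100, 9.77 ± 0.136, 9.35 ± 0.254 and 9.11 ± 0.263. The highest mean was that of minus Pi roots at 6 h, followed by minus Pi roots at 1 h and then plus Pi roots at 1 h, and these 3 groups were separated from each other with no overlap. Below them came minus Pi roots at 24 h, minus Pi roots at 0 h, plus Pi roots at 0 h, plus Pi roots at 6 h and plus Pi roots at 24 h. From plus Pi roots at 1 h downward, neighbours in that order overlapped.

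**Figure D1:**
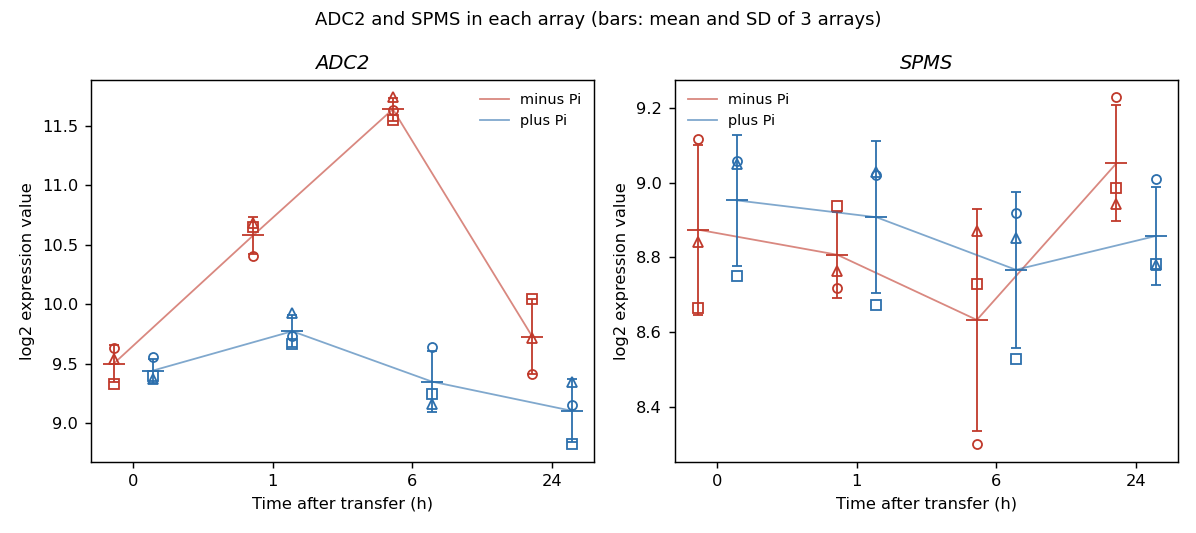
Log2 expression values of ADC2 and SPMS by time after transfer (h, evenly spaced) in minus Pi (red) and plus Pi (blue) roots; circles, squares and triangles are arrays of experiments 1, 2 and 3, and bars are the mean and SD of 3 arrays. At 6 h ADC2 stood at 11.64 in minus Pi roots against 9.35 in plus Pi roots, while SPMS stayed between 8.30 and 9.23 on all arrays; the vertical axes differ.

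The Pi effect, that is the mean of minus Pi roots less that of plus Pi roots on the log2 scale, was 0.06, 0.80, 2.29 and 0.62 for ADC2 at 0, 1, 6 and 24 h (SE 0.160 each, limma). On a linear scale these came to 1.75-fold at 1 h, 4.88-fold at 6 h and 1.54-fold at 24 h. The 6 h effect was the 73rd highest among 22746 probe sets, and those at 1 and 24 h were 367th and 775th. These ranks describe a gene that was chosen on the 6 h contrast and carry no test.

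The experiments differed in the size of the ADC2 effect but not in its sign from 1 h on. At 6 h it was 1.99, 2.29 and 2.58 in experiments 1, 2 and 3, and at 1 h it was 0.67, 0.98 and 0.76. At 24 h it was 0.27, 1.22 and 0.37, so that the mean rested largely on experiment 2 and was 0.32 without it. At 0 h the sign was mixed, with 0.08, -0.07 and 0.16.

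**Figure D2:**
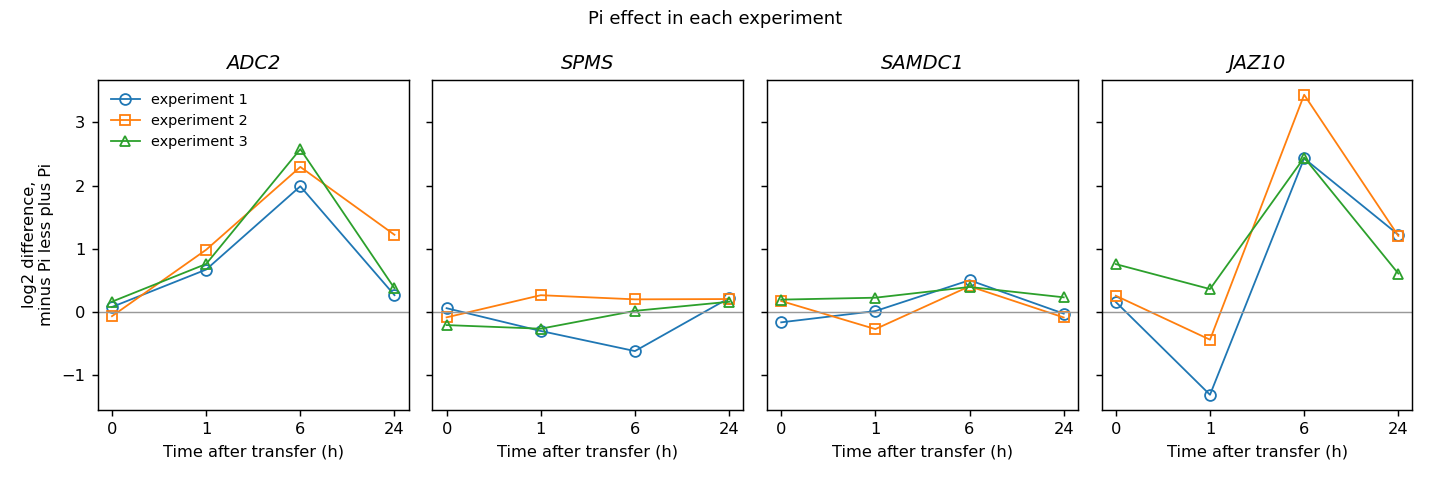
Pi effect (log2 value in minus Pi roots less that in plus Pi roots of the same experiment) of ADC2, SPMS, SAMDC1 and JAZ10 by time after transfer (h, evenly spaced), with 1 line per experiment. ADC2 lay between 1.99 and 2.58 at 6 h in all 3 experiments, SPMS lay on both sides of 0, SAMDC1 was between 0.39 and 0.50 at 6 h, and JAZ10 was high at 6 h in each experiment.

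At 1 and 6 h the ADC2 difference lay mostly in a change within minus Pi roots. At 24 h its split between the arms varied by experiment. Relative to their own 0 h roots, minus Pi roots differed by 1.08 at 1 h, 2.14 at 6 h and 0.23 at 24 h (log2 difference). Plus Pi roots differed from their own 0 h roots by 0.33, -0.09 and -0.34 at those times. In experiments 1, 2 and 3 the 24 h changes were -0.22, 0.71 and 0.18 in minus Pi roots. They were -0.41, -0.57 and -0.03 in plus Pi roots. In minus Pi roots the 24 h arrays overlapped the 0 h arrays again, whereas in plus Pi roots the 24 h arrays were all below those of 0 h. The Pi effect at 6 h exceeded that at 1 h by 1.48, and the Pi effect at 24 h less that at 6 h was -1.67. The 0 and 24 h harvests fall at the same hour of the day, whereas at 1 and 6 h time after transfer and hour of the day cannot be told apart within an arm.

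SPMS, which encodes the enzyme that adds an aminopropyl group to spermidine to form spermine, did not pass the test in any comparison. At 6 h its log2 values in experiments 1, 2 and 3 were 8.30, 8.73 and 8.87 in minus Pi roots, against 8.92, 8.53 and 8.85 in plus Pi roots. At 0 h they were 9.12, 8.67 and 8.84 in minus Pi roots, against 9.06, 8.75 and 9.05 in plus Pi roots. Those arms overlapped at both times, and the lowest of all 24 SPMS values was that of minus Pi roots of experiment 1 at 6 h. At 1 h the values were 8.72, 8.94 and 8.76 in minus Pi roots, against 9.02, 8.67 and 9.03 in plus Pi roots. At 24 h they were 9.23, 8.99 and 8.94 in minus Pi roots, against 9.01, 8.78 and 8.78 in plus Pi roots. The arms overlapped at these times too, although at 24 h each minus Pi array was above the plus Pi array of its own experiment.

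The SPMS Pi effects were -0.08 (95% interval -0.41 to 0.25), -0.10 (-0.43 to 0.23), -0.13 (-0.47 to 0.20) and 0.19 (-0.14 to 0.53) at 0, 1, 6 and 24 h on the log2 scale. Their Benjamini-Hochberg adjusted p-values from limma over all 22746 probe sets were 1.00, 0.950, 0.728 and 0.820. At 6 h the interval ran from 0.724-fold to 1.15-fold. By experiment the 6 h effect was -0.62, 0.20 and 0.02, and that at 24 h was 0.22, 0.20 and 0.16. SPMS also did not pass against its own 0 h roots: the differences were -0.07, -0.24 and 0.18 in minus Pi roots and -0.05, -0.19 and -0.10 in plus Pi roots at 1, 6 and 24 h. The mean SPMS levels of all 8 groups lay between 8.63 and 9.05, and all neighbours in the order of means overlapped. Over the 24 arrays, which share groups and experiments, the Pearson r of SPMS with ADC2 was -0.33.

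For all probe sets, the share with an adjusted p under 0.05 in limma was 0% at 0 h, 1.13% at 1 h, 9.65% at 6 h and 0.321% at 24 h between minus Pi and plus Pi roots. Called higher were 0.708% at 1 h and 3.97% at 6 h. At 0 h, where no probe set passed, 301 had an unadjusted p under 0.05. With the experiment as a block the shares in either direction were 0%, 3.97%, 22.5% and 4.01%. The SPMS count was 0 of 1 in each, as was its count at an unadjusted p under 0.05. Against 0 h, 1.01%, 18.4% and 2.77% of probe sets passed at 1, 6 and 24 h in minus Pi roots, and 0.356%, 2.34% and 0.497% in plus Pi roots. With the block these were 3.69% and 32.1% in minus Pi roots at 1 and 6 h, and 0.862% and 6.31% in plus Pi roots. The Pi effect at 6 h differed from that at 1 h for 1.47% of probe sets (9.05% with the block), and that at 24 h from that at 6 h for 0.259%.

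Of 31 other genes listed for the pathway, 17 had a probe set of their own, and 13 of these had a mean level above the 25th percentile of all probe sets. Between minus Pi and plus Pi roots, 1 of the 17 passed at 6 h, where SAMDC1 was higher, and 0 passed at 0, 1 and 24 h (limma, adjusted p under 0.05). Of the 17 genes, 1, 0, 1 and 1 had an unadjusted p under 0.05 at 0, 1, 6 and 24 h, beside 1.32%, 10.4%, 22.6% and 8.82% of all probe sets. The median Pi effect of the 17 was 0.01, -0.03, -0.02 and 0.01 at the 4 times, beside -0.00, -0.00, -0.02 and -0.00 for all probe sets, and at 6 h the genes ranged from -0.37 to 0.43. The 1 higher call among 17 genes is read against 3.97% of all probe sets called higher at 6 h, and is near that background.

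**Figure D3:**
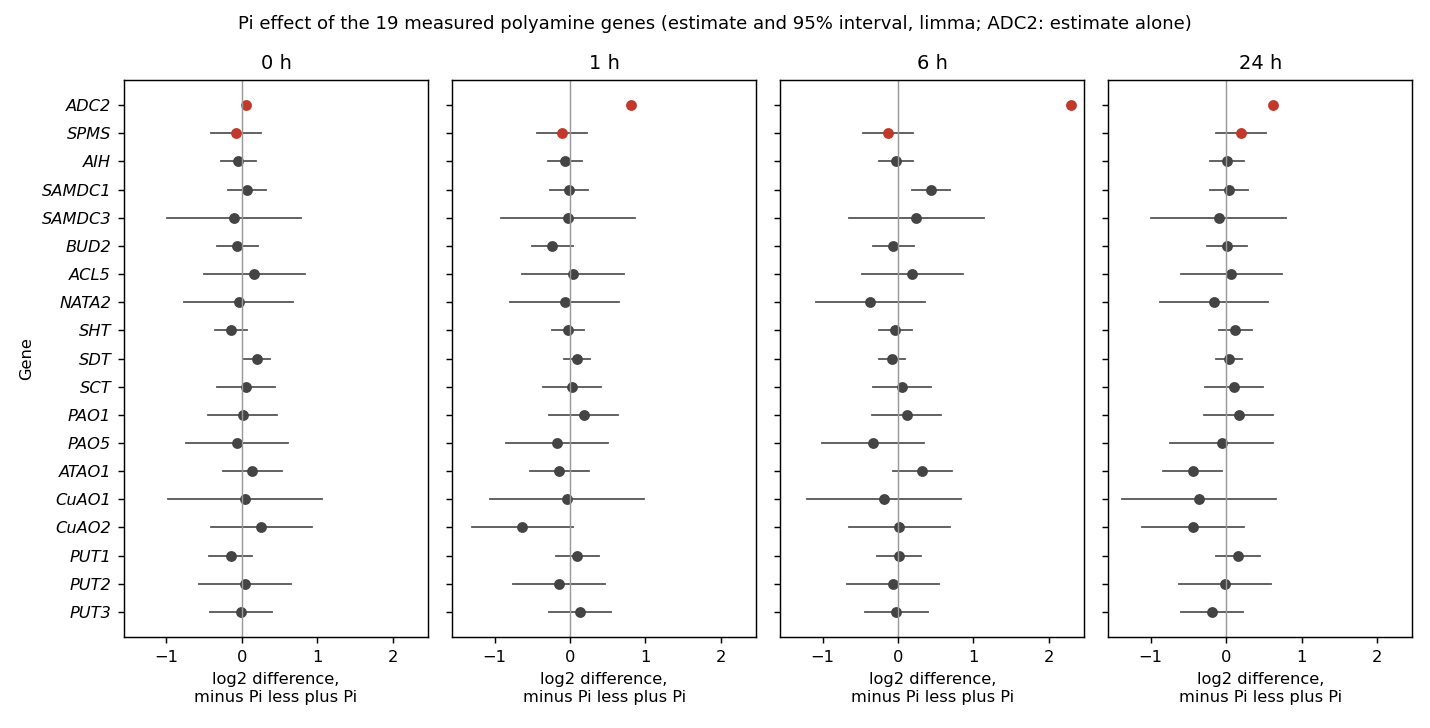
Pi effect (log2, minus Pi less plus Pi roots; points) with its 95% interval (lines, limma) of the 19 measured polyamine genes at 0, 1, 6 and 24 h; ADC2 and SPMS are in red, and ADC2 is drawn without an interval because it was chosen for its effect. At 6 h ADC2 stood at 2.29, and the other 18 genes lay between -0.37 and 0.43.

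SAMDC1 encodes an S-adenosylmethionine decarboxylase, which makes the aminopropyl donor for spermidine and spermine. At 6 h its log2 values were 13.05, 12.72 and 12.81 in minus Pi roots, against 12.55, 12.31 and 12.42 in plus Pi roots. The arms did not overlap at 6 h, and the difference lay in the same direction in each experiment, at 0.50, 0.41 and 0.39. The mean difference was 0.43 (SE 0.119, limma adjusted p 0.0256, and 0.00274 with the experiment as a block). Relative to their own 0 h roots, minus Pi roots differed by 0.16 (adjusted p 0.407) and plus Pi roots by -0.20 (adjusted p 0.640), neither of which passed. The 6 h Pi effect was not shown to differ from that at 1 h (difference 0.45, adjusted p 0.212), although it was so under a block for the experiment (adjusted p 0.0420). The SAMDC1 call was lost where only the compared arrays were fitted (limma adjusted p 0.112) and where an experiment was left out (0.105, 0.234 and 0.117 without experiments 1, 2 and 3). It was also lost without the 2 arrays whose file names mark a second scan (adjusted p 0.0617). Among single 6 h arrays, it was lost without the minus Pi array of experiment 1 or 3 (0.126 and 0.0504) or if that of plus Pi roots from experiment 2 or 3 was dropped (0.124 and 0.0613).

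The other measured decarboxylase genes were SAMDC3 and BUD2, of which BUD2 is required for normal shoot branching. SAMDC3 had a Pi effect of 0.24 at 6 h (95% interval -0.65 to 1.13) and BUD2 one of -0.06 (-0.33 to 0.21). ACL5, the thermospermine synthase that acts in xylem differentiation, had a Pi effect of 0.19 at 6 h (-0.48 to 0.86). These genes did not pass the test between Pi supplies at any time.

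BUD2 and ACL5 passed against 0 h within minus Pi roots at 6 h, the only 2 of the 17 genes to do so (limma). In that contrast 8.51% of all probe sets were called higher and 18.4% in either direction, so the count of 2 is near that background. In minus Pi roots ACL5 had log2 values of 9.25, 8.93 and 9.14 at 6 h, against 8.51, 7.93 and 8.05 at 0 h. The 2 sets of arrays did not overlap, and the difference was 0.94 (SE 0.320, limma adjusted p 0.0476). BUD2 had 5.70, 5.68 and 5.99 at 6 h, against 5.27, 5.45 and 5.46 at 0 h, again without overlap, and differed by 0.40 (SE 0.129, limma adjusted p 0.0377). In the same contrast 2 of 4 leaf markers passed as higher, LHCB4.1 at 1.27 and LHCA1 at 0.91. The other leaf markers, RCA and PSBO1, were lower, at -0.14 and -0.32, and did not pass. In plus Pi roots LHCB4.1 and LHCA1 differed from 0 h by 1.01 and 1.40 at 6 h. In minus Pi roots 2 of 7 root markers passed as lower, COBL9 at -1.46 and TIP2;3 at -1.04. Summed linear levels of the leaf markers in minus Pi roots were 334 to 382 at 6 h, against 191 to 231 at 0 h. Those of the root markers were 1654 to 2523 at 6 h, against 3161 to 4209 at 0 h, so neither sum overlapped between the times. The leaf sum weighed most on LHCB4.1, which had the highest 6 h mean of that list (log2 7.69). The part of the markers in the ACL5 and BUD2 results was not tested.

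In plus Pi roots the changes of both genes from 0 h to 6 h were of like size. ACL5 differed by 0.92 (limma adjusted p 0.190) and BUD2 by 0.40 (adjusted p 0.137), so that 0 of the 17 genes passed there, and 2 had an unadjusted p under 0.05, beside 11.2% of all probe sets. With the experiment as a block both passed in plus Pi roots, at adjusted p 0.0270 for ACL5 and 0.0482 for BUD2. In minus Pi roots both passed with that block too, at adjusted p 0.00561 for ACL5 and 0.0138 for BUD2. BUD2 then also passed in plus Pi roots at 1 h, with a difference of 0.53 (adjusted p 0.0372 with the block and 0.115 without). Whether the changes of the arms differ from each other was not tested. In minus Pi roots ACL5 lost its call whenever an array or an experiment was left out (limma adjusted p 0.0542 to 0.222), and BUD2 kept it in 2 of 9 such fits (0.0441 to 0.210).

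**Figure D4:**
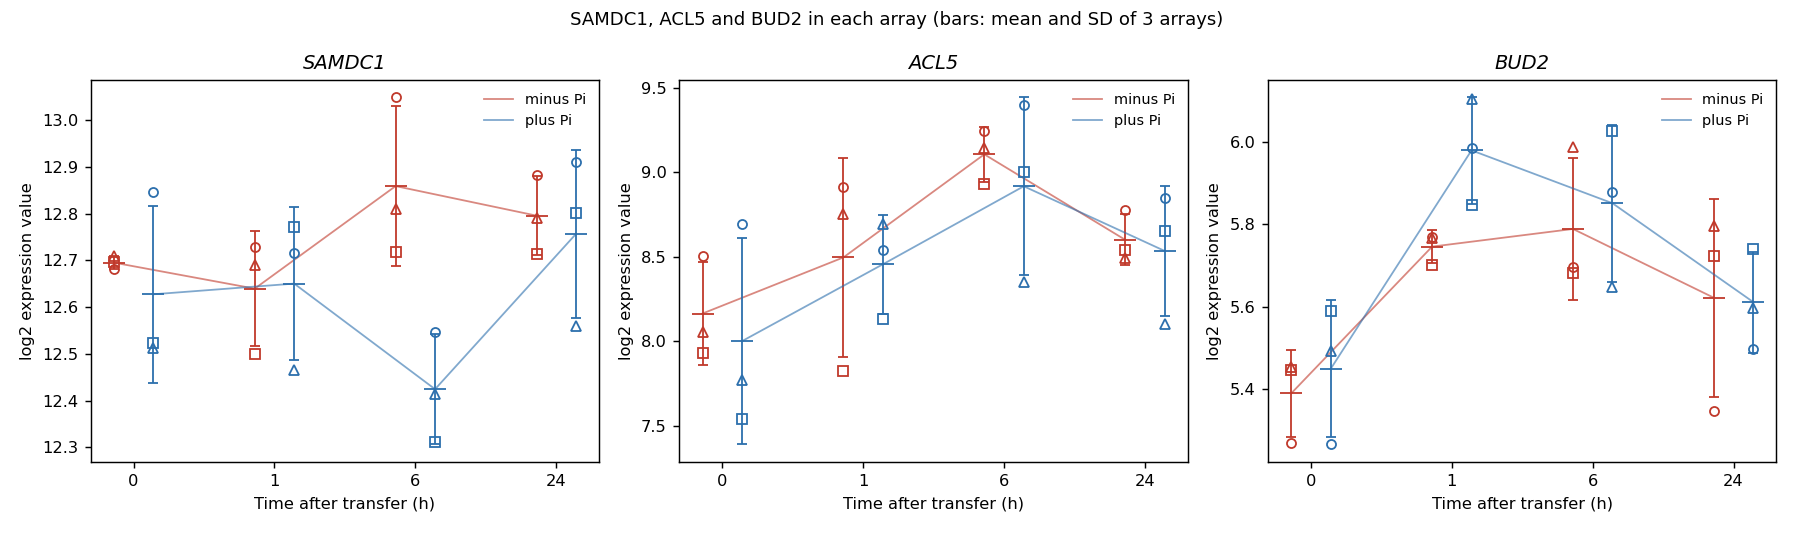
Log2 expression values of SAMDC1, ACL5 and BUD2 by time after transfer (h, evenly spaced) in minus Pi (red) and plus Pi (blue) roots; circles, squares and triangles are arrays of experiments 1, 2 and 3, and bars are the mean and SD of 3 arrays. SAMDC1 separated the arms at 6 h (12.86 against 12.42), while ACL5 and BUD2 were above their 0 h means at 6 h in both arms; the vertical axes differ.

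Next to ADC2 in the pathway stands AIH, which encodes agmatine iminohydrolase, and it did not pass at any time. It had a Pi effect of -0.03 at 6 h (95% interval -0.26 to 0.20). Its log2 mean was 8.24 ± 0.237 in minus Pi roots, against 8.27 ± 0.0736 in plus Pi roots (SD, n = 3 each).

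Of the genes that acylate polyamines or their precursors, NATA2, SHT, SDT and SCT were measured, and the last 3 were below the 25th percentile of mean levels. NATA2, the neighbouring relative of NATA1, had 6 h log2 values of 8.19, 7.57 and 7.58 in minus Pi roots, against 8.50, 8.12 and 7.82 in plus Pi roots. The arms overlapped, with experiment 1 the highest in both, and within each experiment the minus Pi array was the lower one. The difference was -0.37 (SE 0.342, limma adjusted p 0.629), and it passed once the experiment was a fixed block (adjusted p 0.0220), a call that was lost under an estimated correlation (adjusted p 0.136). Against its own 0 h level in minus Pi roots NATA2 differed by -0.42 at 6 h (limma adjusted p 0.468, and 0.00641 with the fixed block), and it was not past the threshold with an estimated correlation (adjusted p 0.0622). SHT, SDT and SCT, which join spermidine to phenolic acids, had Pi effects of -0.04, -0.09 and 0.05 at 6 h.

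Polyamine breakdown was covered by PAO1 and PAO5, polyamine oxidases, and by the copper amine oxidases ATAO1, CuAO1 and CuAO2. None of the 5 passed at a Pi effect without or with the block. ATAO1, a putrescine oxidase of the cell wall, had 0.32 at 6 h and -0.45 at 24 h (limma adjusted p 0.338 and 0.452). CuAO2 had -0.63 at 1 h (adjusted p 0.524). Within minus Pi roots CuAO2 differed from 0 h by -0.94 at 1 h (adjusted p 0.254, and 0.00933 with the experiment as a block) and by -0.57 at 6 h (0.253 and 0.0289). With an estimated correlation in place of the fixed block both passed, at adjusted p 0.0151 and 0.0453. The Pi effects of PAO1, PAO5 and CuAO1 at 6 h were 0.12, -0.33 and -0.19. The polyamine uptake carriers PUT1, PUT2 and PUT3 had 0.01, -0.07 and -0.02 at 6 h and did not pass at any time.

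Across the 24 arrays, the probe set most like ADC2 of 17003 that name 1 gene was that of AT5G01380, with a Pearson r of 0.963. AT5G49700, an AT-hook protein gene, followed with 0.912, then AT5G42940 with 0.894, AT5G27760 with 0.892, AT5G47600 with 0.890 and PGIP1, which encodes an inhibitor of fungal pectin-degrading enzymes, with 0.889. The lowest correlations were those of AT1G80280 (-0.911), the metal transporter gene YSL4 (-0.901) and ATMYC1 (-0.895), a bHLH gene known from epidermal patterning. The arrays share 8 groups and 3 experiments, and such values describe likeness of profile in these samples. By Spearman's rho 1 of the first 6 was again among the 6 highest, and 2 were so after removal of the experiment means. AT5G01380 had a rho of 0.847 (rank 2), and the others of the first 6 had 0.577 to 0.726. The lowest of these was that of AT5G42940, at rank 323 of 17003.

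The Pi effects of these genes at 6 h ranged widely. AT5G01380 had 1.59 and AT5G49700 had 1.76, both below the 2.29 of ADC2, whereas PGIP1 had 4.46. In minus Pi roots AT5G01380 differed from its 0 h level by 0.93, 1.65 and 0.21 at 1, 6 and 24 h. PGIP1 differed by 3.06, 6.56 and 1.79 in minus Pi roots and by 0.92, 1.49 and -0.59 in plus Pi roots. AT1G80280 took the opposite course, with -1.02, -1.76 and -0.06 in minus Pi roots.

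**Figure D5:**
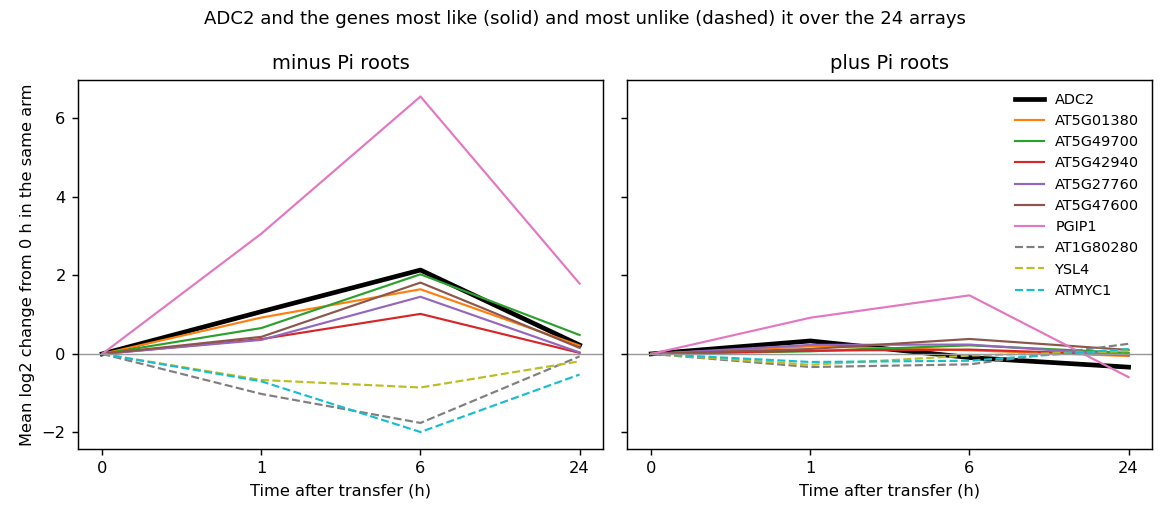
Mean log2 change from 0 h in the same arm (3 experiments) by time after transfer (h, evenly spaced) for ADC2 (black), the 6 genes with the highest Pearson r with it over 24 arrays (solid) and the 3 with the lowest (dashed), in minus Pi roots (left) and plus Pi roots (right). ADC2 reached 2.14 and PGIP1 6.56 at 6 h in minus Pi roots; the genes were picked for this likeness.

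None of the 17 other pathway genes was among those most like ADC2. SAMDC1 had a Pearson r of 0.32 with ADC2 over the 24 arrays, ACL5 0.40 and AIH -0.25. CuAO2 had the lowest of the 17, at -0.44. SPX1, a marker of Pi deficiency that senses Pi status, had 0.19: its Pi effect was 1.63 at 6 h and 3.17 at 24 h. SPX1 had its largest effect at 24 h in these groups. That of ADC2 was at 6 h, for which the gene had been chosen, so this contrast between the 2 genes is a description only.

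Jasmonate genes were looked at beside ADC2 because ADC2 is known to respond to jasmonate, and 3 of 17 listed had a probe set of their own. JAZ10, a jasmonate-induced repressor of jasmonate signalling that was named as a responder from earlier results of this study, had 6 h log2 values of 7.14, 8.09 and 7.62 in minus Pi roots, against 4.71, 4.65 and 5.18 in plus Pi roots. Its arms did not overlap, and its Pi effect was 2.77 at 6 h, beside 0.39, -0.46 and 1.01 at 0, 1 and 24 h. At 1 h, when ADC2 was higher in minus Pi roots in each experiment, JAZ10 was higher in 1 of 3. JAZ10 differed from 0 h by 0.74, 1.79 and 0.05 at 1, 6 and 24 h in minus Pi roots. In plus Pi roots it differed by 1.60, -0.59 and -0.57 at those times. At 1 h JAZ10 was thus above its 0 h level in 3 of 3 experiments in plus Pi roots and in 2 of 3 in minus Pi roots. AOS, which encodes an enzyme of jasmonate synthesis, had 0.67 at 6 h (limma adjusted p 0.103, and 0.000272 with the experiment as a block). Its Pi effect was already 0.31 at 0 h, with the same sign in 3 of 3 experiments. At 6 h AOS was below its own 0 h level in both arms, with differences of -0.51 in minus Pi and -0.87 in plus Pi roots. LOX2 had a Pi effect of 0.02 at 6 h. The Pearson r of JAZ10 with ADC2 over the 24 arrays was 0.77.

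Markers of root and leaf tissue were set beside the 6 h results. Of 7 measured root markers none was at 0 and 0 passed at 6 h (limma), with a median Pi effect of -0.52. At that time their summed linear level ran from 1654 to 2523 in minus Pi roots, against 2728 to 3242 in plus Pi roots, so the arms did not overlap. The sum weighed most on TIP2;3, which had the highest mean level of the list (log2 9.74 in minus Pi and 10.26 in plus Pi roots). With the experiment as a block, the root hair genes COBL9 and EXPA7 passed as lower, at -0.86 and -1.35. PRP3 and TIP2;3 were lower in each experiment, at -0.98 and -0.52 on average. The signs were mixed for SHR, SCR and IRT1, at -0.10, -0.11 and 0.24, so the list did not move as a whole. The 4 measured leaf markers summed at 6 h to 334 to 382 in minus Pi roots, against 222 to 582 in plus Pi roots, and 0 of 4 passed between Pi supplies. The part of the root marker difference in the ADC2 and SAMDC1 results was not tested, and in such bulk samples fewer cells of a type and less RNA per cell cannot be told apart.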

How the data were processed

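Root RNA was measured on 24 Affymetrix arrays. The authors deposited values on a log2 scale (range 2.61 to 14.2); probe summarisation and normalization are not given in the sources used here. A comparison table deposited by the authors gives log2 fold changes, p-values and a test statistic, which is a score, and limma was used per the submitters' processing notes. Its log2 differences equalled those computed here within 5e-07, and its p-values were adjusted ones.

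A probe set's gene came from the locus column of the deposited table or, where blank, from platform annotation, which can be old, matched to RefSeq symbols (TAIR10.1). Of 22810 probe sets, 64 controls were left out; of the 22746 tested, 17005 named 1 gene, 662 several and 5079 none. RefSeq lists AT5G53120 as SPDS3 with SPMS as a synonym. No array column was left unused.

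Group means over all 24 arrays were fitted with limma 3.58.1 (R 4.3.3), with Benjamini-Hochberg adjustment over all 22746 probe sets and a threshold of 0.05; intervals are 95%. A permutation test of 3 arrays against 3 cannot go below p = 0.1. The scripts were tested on simulated data with independent noise on each array, so that test does not bear on the experiment block. The labels number the experiments 1 to 3, and same-experiment arrays deviated together at each time (r 0.228 to 0.836), so the number pairs the samples; p-values with it as a block stand beside results they change. Nothing else says that arrays of a group came from separate plants. Named genes were all measured members, pathway genes past the threshold at a Pi effect and examples by role, the 6 probe sets of 1 gene with the highest r with ADC2 and the 3 with the lowest, SPX1, JAZ10 and jasmonate genes. CuAO2 within minus Pi roots, BUD2 and ACL5 against 0 h, and the root and leaf marker genes were named after their values were seen. Members and lists were chosen with earlier results of these data known. Alternatives were another scaling, a low-value filter (25th percentile, log2 4.65), other moderation, a block, other sets of arrays, and leaving out arrays or experiments. For 1-colour arrays, the number of arrays limits the precision.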

Additional observations from a re-analysis of the deposited data

Results flagged for a closer look

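For 3 genes the Pi effect (minus Pi less plus Pi roots, log2) at 1 time stood apart from that at another, and for JAZ10 alone was this tested. JAZ10 had a Pi effect at 6 h that exceeded that at 1 h by 3.23 (limma interaction contrast, adjusted p 0.0100), and did so in 3 of 3 experiments. Both arms changed between these times: the JAZ10 means at 1 and 6 h were 6.57 and 7.62 in minus Pi roots, against 7.03 and 4.85 in plus Pi roots. JAZ10 was named as a responder from earlier results of these samples, so the p-value of the interaction contrast is not independent evidence. SHT, which was below the 25th percentile of mean levels, was lower in minus Pi roots in all 3 experiments at 0 h and higher in all 3 at 24 h, and the Pi effects were 0.26 apart. PUT1, also below it, was lower in minus Pi roots in all 3 experiments at 0 h and higher in all 3 at 1 h, and the effects were 0.25 apart. The differences of SHT and PUT1 were not tested, and both were noted after their signs were seen. They came from a search of SPMS, the 17 other pathway genes and the 3 jasmonate genes over every pair of harvest times. Some opposite signs can be met by chance in so many comparisons.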

How the results depend on the processing

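SPMS did not pass in any of the comparisons under any alternative, and the ADC2 Pi effect at 6 h stayed between 2.14 and 2.44 when arrays or experiments were left out. The count of other pathway genes passing at the 6 h Pi effect, 1 of 17, was 2 with a fixed replicate block, 0 when only the arrays compared were fitted, 0 without the 2 second-scan arrays, and 0 to 1 with an array or experiment left out. The within-arm counts were added after seeing the data. For minus Pi roots at 6 h against 0 h the count of 2 was 4 with the fixed replicate block, 1 with only the arrays compared, 1 with intensity trend and robust moderation, 0 without the 3 arrays numbered outside their run, 0 without the 2 second-scan arrays, and 0 to 1 with an array or experiment left out. For plus Pi roots the counts of 0 at 1 h and 0 at 6 h were 1 and 2 with either block, and for minus Pi roots at 1 h the count of 0 was 1 with either block. The block changed no other of these counts by over 1.5 times. Without the 3 arrays numbered outside their run, SPMS in plus Pi roots at 1 h against 0 h was 0.072 and its 6 h less 1 h Pi effect was 0.036, both of opposite sign to the main values. With arrays or experiments left out, small differences changed sign: ADC2 ran from -0.0098 to 0.14 for the Pi effect at 0 h, from -0.24 to 0.0021 for plus Pi roots at 6 h and from -0.019 to 0.45 for minus Pi roots at 24 h. SPMS ran from -0.20 to 0.026 and from -0.30 to 0.11 for the Pi effects at 0 and 6 h, from -0.15 to 0.072 for plus Pi roots at 1 h, from -0.24 to 0.098 and from -0.39 to 0.046 for minus Pi roots at 1 and 6 h, and from -0.19 to 0.13 for the 6 h less 1 h Pi effect. Median centring moved the median of all probe sets by at most 0.06; higher calls at 1 h were then 190 of 240, against 161 of 258 in the main setting. The causes were not tested.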
